A study of Mus musculus with 7 samples.

Results

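The genes described here make peptides for presentation by thymic epithelium, and 10 were chosen by name, with earlier results of these data known. They are 5 catalytic subunits of the proteasome (Psmb11, Psmb8, Psmb9, Psmb10 and Psmb5) and 5 genes of the lysosomal route (Prss16, Ctsl, Ctss, Lgmn and Ifi30). All 10 were found among the 19937 genes with a probe set of 1 gene symbol, and each had 1 probe set. Each value is the log2 of the deposited intensity of that probe set.

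RNA was hybridised to Affymetrix expression arrays from medullary epithelial cells of NOD mouse thymi, taken by sorting as MHCIIhi, that is with much MHC class II at the surface. The reconRAG1KO group (4 samples) carried null RAG1, which stops lymphocytes from assembling their receptors, and the series names it as the control. The reconSCID group (3 samples) carried the SCID mutation of DNA-PK, a kinase that binds broken DNA ends and acts in their joining. Both groups were irradiated with 200 rad and given bone marrow 6 h later by injection into the peritoneum at 2 to 4 days of age, and thymi were taken 6 to 8 weeks after transfer. SCID mice lack mature thymocytes, and the marrow was given to restore them and the thymic stroma. The marrow donor is not named in the labels. Irradiation and transfer were common to all samples, so no group shows the cells without them. The titles call the samples biological replicates, and the number of thymi in each is not given.

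Proteasomes cut cytosolic proteins into peptides for MHC class I. The constitutive core uses Psmb5, Psmb6 and Psmb7 as its cutting subunits, the immunoproteasome replaces them with Psmb8, Psmb9 and Psmb10, and the thymoproteasome of the cortex carries Psmb11 in the place of Psmb5. For MHC class II, lysosomal proteases trim the invariant chain and the antigens. In the mouse thymus, cortical epithelium is known for cathepsin L (Ctsl) and the thymus-specific serine protease (Prss16), whereas medullary epithelium and dendritic cells are known for cathepsin S (Ctss). Lgmn encodes the asparagine-specific endopeptidase legumain, and Ifi30 the interferon-induced reductase GILT, which opens disulfide bonds in the lysosome.

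Correlations over all probe sets divided the 7 arrays. A smaller set held reconRAG1KO replicate 4 and reconSCID replicate 2 (correlation 0.972), and a larger set held the other 5 (0.976 to 0.990), with 0.922 to 0.947 across the sets. Median intensities ran from 88.6 to 96.3. Labels name no batch, and each set holds both groups, so group differences are given over all 7 arrays, with array set as a block in the fit, and in the larger set of 5 alone. Of 57 ribosomal protein genes 55 were lower in the smaller set, with a median log2 difference of -1.44, against 0.12 for all genes. Their part in the values that follow was not tested. The sort was checked against markers. Aire, the regulator that defines mature medullary cells, measured 10.90, 10.89, 11.09 and 11.93 in reconRAG1KO and 10.70, 11.46 and 9.73 in reconSCID, all above the array medians of 6.47 to 6.59. Macrophage and dendritic cell transcripts were present too, with Lyz2 between 11.53 and 13.23 and C1qa between 9.05 and 11.78. So were thymocyte and T cell transcripts, with Cd4 between 8 and 9.85 and Cd8a between 7.92 and 9.65. The summed intensity of 11 such markers was 1535 to 1895 in the smaller set and 2338 to 4392 in the larger. Between the groups, 11 of 11 medullary markers, 10 of 10 general epithelial markers and 9 of 9 neutrophil markers had a lower mean in reconSCID, with medians of -0.42, -0.46 and -1.49. Their summed intensities were 11187 to 15992, 6152 to 11470 and 1157 to 9794 in reconRAG1KO, against 6970 to 15166, 3511 to 9390 and 920 to 1683 in reconSCID. In bulk samples, fewer cells of a type and less RNA per cell cannot be told apart.

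The 10 genes split into 2 groups of opposite sign between the array sets, and neither sign followed the genotype. Psmb8, Psmb9, Psmb10, Psmb5, Ctss, Lgmn and Ifi30 were lower on both arrays of the smaller set than on all 5 others, and Psmb11, Prss16 and Ctsl were higher on both. The 7 lower genes stand beside 18.7% of 34760 probe sets that were lower without overlap in the smaller set, and beside 57.3% of the 1916 genes with a mean log2 intensity above 9, a level chosen after values were seen that all 7 exceed. The 3 higher genes stand beside 32.7% of probe sets. Among the 1916 genes with a mean above 9, as for Ctsl, that share was 12.6%. Among the 8387 genes with a mean below the median of all values, as for Psmb11, it was 49.1%. The array sets were made from the arrays themselves, so the split is a description and has no test.

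**Figure D1:**
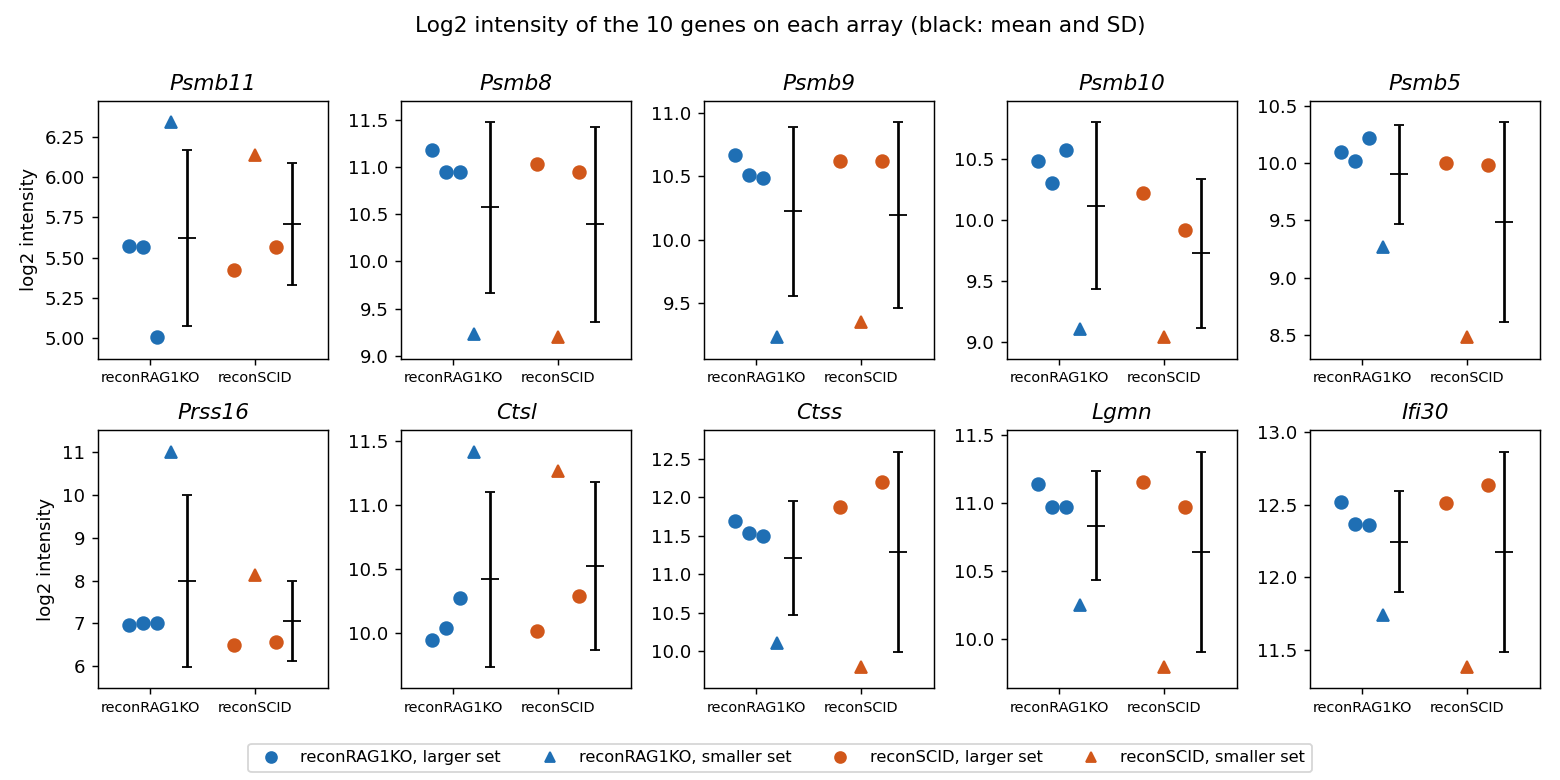
Log2 intensity of each of the 10 genes on the 7 arrays, by group; circles are the 5 arrays of the larger set, triangles the 2 arrays of the smaller set, and black bars the group mean and SD. In every panel both triangles lie on the same side of all circles, below them for 7 genes and above them for Psmb11, Prss16 and Ctsl.

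No gene of the 10 differed between the groups by the test fixed for the comparison. By limma with Benjamini-Hochberg adjustment, 0 of 34760 probe sets (0%) passed an adjusted p under 0.05, and 1159 (3.33%) had an unadjusted p under 0.05 (2.2% higher and 1.13% lower in reconSCID). Among the 19937 genes the balance was the other way, with 172 higher and 237 lower. None of the 10 was among either, every 95% interval over 7 arrays held 0, and the groups overlapped for all 10, where 2.09% of probe sets were higher and 1.43% lower in reconSCID without overlap. In the larger set alone 0 probe sets passed (0%) and 15.5% had an unadjusted p under 0.05 (8.87% higher and 6.63% lower), as had 3 of the 10, Prss16 and Psmb10 as lower and Ctss as higher. There 3 of the 10 were lower without overlap, against 15.4% of probe sets, and 1 was higher, against 15.7%. Blocked by array set, 0 passed (0%) and 12.3% had an unadjusted p under 0.05 (6.53% higher and 5.77% lower), as had 1 of the 10, Prss16, as lower. Among the 19937 genes 1064 were higher and 1345 lower by that rule.

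**Figure D2:**
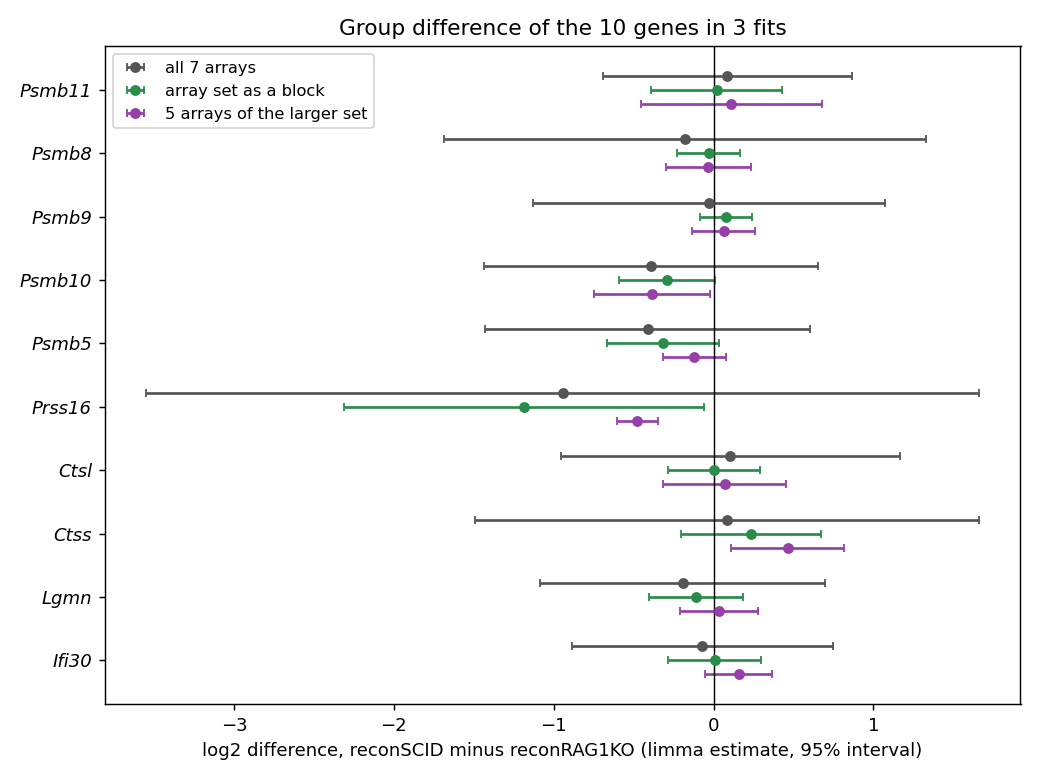
Log2 difference (x axis), reconSCID minus reconRAG1KO, of the 10 genes as the limma estimate with its 95% interval, over all 7 arrays (grey), blocked by array set (green) and in the 5 arrays of the larger set (purple). All grey intervals hold 0; the purple intervals of Prss16, Psmb10 and Ctss do not, and the green one of Prss16 does not.

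Blocked by array set, the immunoproteasome subunit genes Psmb8, Psmb9 and Psmb10 differed between the groups by -0.03, 0.08 and -0.29 on the log2 scale, and none passed the test. Psmb8, the beta5i subunit with chymotrypsin-like activity, measured 11.18, 10.94, 10.94 and 9.23 in reconRAG1KO replicates 1 to 4 and 11.03, 9.20 and 10.94 in reconSCID replicates 1 to 3. The low values were those of reconRAG1KO replicate 4 and reconSCID replicate 2, and the groups overlapped. The log2 difference of Psmb8 was -0.18 (95% interval -1.69 to 1.33, limma adjusted p = 1), or -0.03 when blocked by array set (-0.23 to 0.17). Of its values, 3 were identical as deposited, those of reconRAG1KO replicates 2 and 3 and reconSCID replicate 3, as in the case of Lgmn on the same 3 arrays, and such ties can make the spread look small. At least 2 equal values occur in 46.2% of probe sets.

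Psmb9, the beta1i subunit, measured 10.67, 10.51, 10.49 and 9.23 in reconRAG1KO and 10.62, 9.35 and 10.62 in reconSCID. Its difference was -0.03 (-1.13 to 1.07), or 0.08 with the block (-0.08 to 0.24), so its sign turned. Psmb10, the beta2i subunit, measured 10.49, 10.31, 10.58 and 9.11 in reconRAG1KO and 10.23, 9.04 and 9.92 in reconSCID. In the larger set both reconSCID arrays lay below all 3 reconRAG1KO arrays for Psmb10. There its difference was -0.39 (-0.75 to -0.02), and limma gave it an unadjusted p of 0.04115 (adjusted p = 0.3018). With the block it was -0.29 (-0.59 to 0.01), and -0.16 without reconSCID replicate 3, the lower of the pair. Between the 2 arrays of the smaller set the difference of Psmb10 was -0.06.

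Psmb8 and Psmb9 lie in the MHC region of chromosome 17, and Psmb9 and the peptide transporter gene Tap1 start 226 bases apart on opposite strands in the RefSeq annotation of GRCm38.p6. Tap1 was named for this position after its values were seen. It measured 10.18, 10.24, 10.15 and 9.97 in reconRAG1KO and 10.31, 9.92 and 10.08 in reconSCID. In the smaller set the mean of Psmb9 differed by -1.30 on the log2 scale from that in the larger set, and that of Tap1 by -0.25, so the values of this divergent pair differed between sets to unequal extents. The Psmb9 window is shown for this pair, with the bases between both starts in capitals, and those of Psmb8 and Ctss for the interferon motifs searched. Each spans 250 bases before to 50 after the annotated start, 5′ to 3′ on the gene's strand, from RefSeq on GRCm38.p6. In the Psmb8 and Ctss windows capitals mark motif matches. The Psmb9 window is chr17:34187281-34187580 on the minus strand, the Psmb8 window chr17:34197945-34198244 on the plus strand and the Ctss window chr3:95526536-95526835 on the plus strand.
Psmb9: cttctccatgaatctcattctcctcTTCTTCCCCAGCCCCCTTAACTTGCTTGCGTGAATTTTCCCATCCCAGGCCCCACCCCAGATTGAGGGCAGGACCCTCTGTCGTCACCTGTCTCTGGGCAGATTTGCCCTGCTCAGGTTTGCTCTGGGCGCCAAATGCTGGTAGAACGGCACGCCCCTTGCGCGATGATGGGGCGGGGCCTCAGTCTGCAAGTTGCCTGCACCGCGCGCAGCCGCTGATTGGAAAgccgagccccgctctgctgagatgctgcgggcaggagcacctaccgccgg
Psmb8: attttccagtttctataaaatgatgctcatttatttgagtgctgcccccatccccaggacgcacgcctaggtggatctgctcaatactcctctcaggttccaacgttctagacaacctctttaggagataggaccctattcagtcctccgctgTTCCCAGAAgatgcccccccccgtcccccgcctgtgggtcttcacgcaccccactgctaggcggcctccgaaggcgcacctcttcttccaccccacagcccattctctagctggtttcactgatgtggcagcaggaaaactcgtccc
Ctss: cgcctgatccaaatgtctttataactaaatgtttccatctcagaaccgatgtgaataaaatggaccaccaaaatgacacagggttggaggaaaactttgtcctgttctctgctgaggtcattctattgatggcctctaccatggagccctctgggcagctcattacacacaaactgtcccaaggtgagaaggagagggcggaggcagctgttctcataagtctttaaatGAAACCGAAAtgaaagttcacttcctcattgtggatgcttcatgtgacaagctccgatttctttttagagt

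Windows were found for 9 of the 10 genes, and 5 motifs were searched on both strands. The core of the interferon-stimulated response element (GAAA, any 2 bases, GAAA) was present in 1, at bases -21 to -12 of Ctss, and in 3.44% of 32851 windows of the same length. The gamma-activated site (TTCNNNGAA) was present in 1, at bases -97 to -89 of Psmb8, and in 8.3% of all windows. An NF-kappaB consensus site was present in 0 of the 9 and in 0.155% of all. An E-box (CACGTG), the core of the motif bound by lysosomal gene regulators such as TFEB, was present in Psmb10, Ctsl, Lgmn and Ifi30, and in 7.15% of all windows; for Lgmn it lay in the second of its 2 windows. These matches are descriptions of the letters only.

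The constitutive subunit Psmb5 and the cortical subunit Psmb11 are neighbours on mouse chromosome 14, and their values went in opposite directions between the array sets. Their starts lie 7315 bases apart on opposite strands. Psmb5 measured 10.09, 10.02, 10.22 and 9.27 in reconRAG1KO and 10, 8.48 and 9.98 in reconSCID, with replicate 2 of the latter the lowest. Its log2 difference was -0.41 (-1.43 to 0.60), or -0.32 with the block (-0.67 to 0.03), or -0.12 in the larger set (-0.32 to 0.08). Without reconSCID replicate 2 the difference over all other arrays was 0.09. Psmb11 measured 5.57, 5.56, 5.01 and 6.34 in reconRAG1KO and 5.42, 6.14 and 5.56 in reconSCID. It was the 1 gene of the 10 below the median of its array on every array. Its difference was 0.09 (-0.69 to 0.87), or 0.02 with the block (-0.39 to 0.43). In the smaller set Psmb11 was higher by 0.81, as were 49.1% of the 8387 genes whose mean lay below the median of all values, without overlap. Both windows are shown because the 2 genes are neighbours with opposite values. That of Psmb5 (chr14:54617946-54618245, minus strand) holds the antioxidant response element TGACNNNGC in capitals at bases -47 to -39, a motif known from proteasome genes and present in 12.4% of all windows and, of the 10 genes, in Ifi30 as well. That of Psmb11 (chr14:54625060-54625359, plus strand) holds none of the 5 motifs.
Psmb5: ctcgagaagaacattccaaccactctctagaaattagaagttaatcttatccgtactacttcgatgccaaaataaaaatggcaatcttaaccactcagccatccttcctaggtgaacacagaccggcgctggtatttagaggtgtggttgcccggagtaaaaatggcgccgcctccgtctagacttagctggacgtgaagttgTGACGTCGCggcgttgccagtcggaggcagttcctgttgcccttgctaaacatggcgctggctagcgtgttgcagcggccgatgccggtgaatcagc
Psmb11: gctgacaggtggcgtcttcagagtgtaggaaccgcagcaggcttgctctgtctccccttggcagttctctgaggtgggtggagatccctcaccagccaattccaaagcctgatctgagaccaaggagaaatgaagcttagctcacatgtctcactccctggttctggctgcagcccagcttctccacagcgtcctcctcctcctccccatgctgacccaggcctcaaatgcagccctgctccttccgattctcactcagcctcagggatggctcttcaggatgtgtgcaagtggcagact

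**Figure D3:**
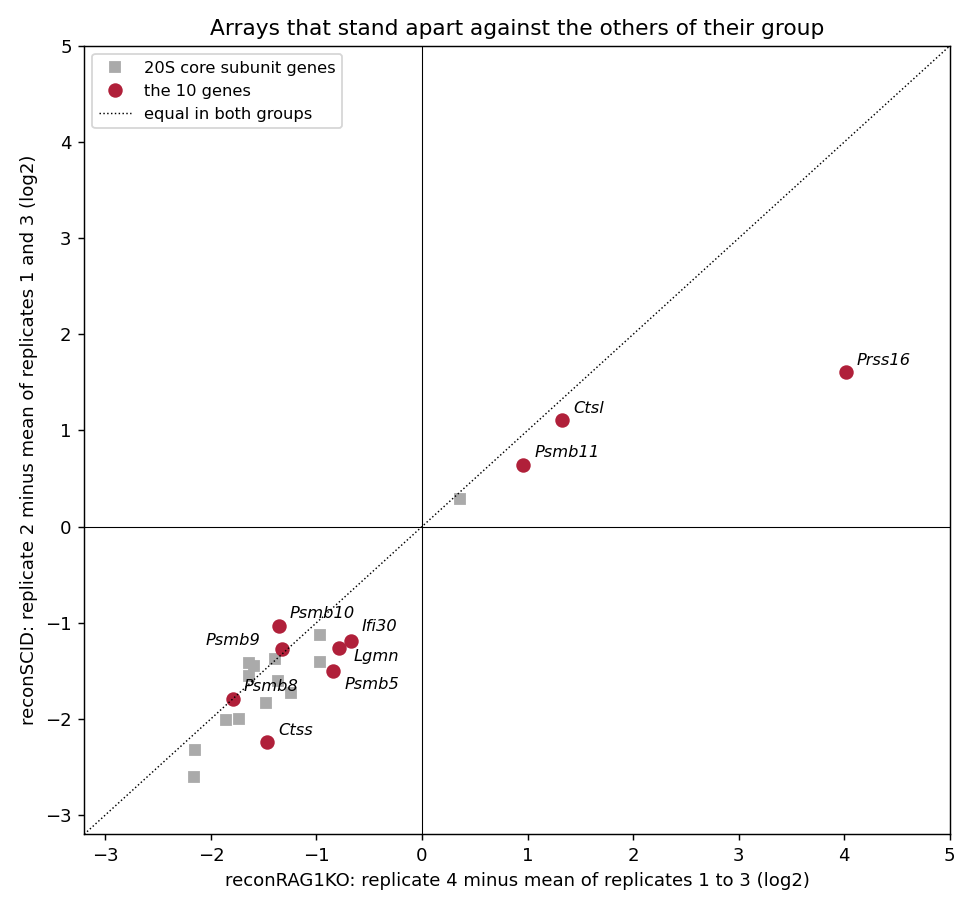
For each of the 10 genes (red) and 14 genes of the 20S core (grey), the log2 value of the array that stands apart minus the mean of the other arrays of its group, in reconRAG1KO (x axis) against reconSCID (y axis). The immunoproteasome genes lie among the core subunits at the lower left, Prss16 lies at 4.02 and 1.61, and the dotted line marks equal values in both groups.

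Other genes of the core went with the immunoproteasome subunits. Of 14 measured genes of the 20S core outside the 10, 13 were lower in the smaller set without overlap, with a median difference of -1.54, beside the 57.3% of genes with a mean above 9 and the 18.7% of all probe sets given above. The exception was Psma8, known as a testis subunit, at 0.32. Psma8 had means of 5.49 in reconRAG1KO and 5.48 in reconSCID, below the median of all values. Of genes at such a level 49.1% were higher in the smaller set without overlap. Psme1 and Psme2, the interferon-induced PA28 caps of the immunoproteasome, were named after their values were seen and differed by -1.94 and -2.23. The interferon-response list as a whole did not go the same way. Of its 21 measured genes 9 were lower and 8 higher without overlap in the smaller set, with a median of 0.13.

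Partners that exchange for each other were also set in ratio on the same array, given here as a difference of log2 ratios with no test. From the larger to the smaller set the ratio of Psmb8 to Psmb5 differed by -0.61, that of Psmb9 to Psmb6 by 0.58 and that of Psmb10 to Psmb7 by -0.17, so the 3 pairs had no common direction. No ratio is given for Psmb11, which lay below the array median throughout. In reconSCID against reconRAG1KO, the 3 immunoproteasome ratios differed by 0.23, 0.33 and -0.15 over all arrays, and by 0.09, 0.19 and -0.28 in the larger set. The SDs of the 3 ratios among the reconRAG1KO arrays of that set were 0.18, 0.17 and 0.17.

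Over all 7 arrays 14 of 14 core subunit genes had a lower mean in reconSCID, with a median of -0.21, against -0.01 for all genes. With the block 11 of 14 were lower and the median was -0.08. The median was 0.31 without reconSCID replicate 2 and -0.56 without reconRAG1KO replicate 4, since each removal leaves the other array of the smaller set in 1 group only. Negative differences were found for 48.7% of probe sets over all arrays, 50% with the block and 49.5% in the larger set. None of the 14 passed, and none had an unadjusted p under 0.05. The smallest unadjusted p was that of Psmb4, a structural subunit, at a difference of -0.33 over 7 arrays and -0.10 in the larger set. Among 24 regulator genes of the 19S and 11S caps 21 were lower, with a median of -0.11 (-0.06 with the block), and Psmd3, with the smallest unadjusted p, differed by -0.19. Of 5 assembly factors 4 were lower, with a median of -0.25 (-0.08 with the block), and the chaperone gene Psmg1, with the smallest unadjusted p, differed by -0.25. None of these passed.

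Prss16 had the widest range of the 10 genes. It measured 6.97, 7.01, 7.01 and 11.01 in reconRAG1KO and 6.48, 8.13 and 6.55 in reconSCID. ReconRAG1KO replicate 4 stood 4.02 above the mean of its group's other arrays, and reconSCID replicate 2 stood 1.61 above its own. The difference over all arrays was -0.94 (-3.55 to 1.66, adjusted p = 1), and it was 0.06 without reconRAG1KO replicate 4. In the larger set both reconSCID arrays lay below the 3 reconRAG1KO arrays. There the difference of Prss16 was -0.48 (-0.60 to -0.35), where limma gave an unadjusted p of 0.00036 (adjusted p = 0.1648) and 2 of the 3 reconRAG1KO values were identical as deposited. With the block it was -1.18 (-2.31 to -0.06), with an adjusted p of 0.3879. Without reconRAG1KO replicate 4 the block absorbs the other array of the smaller set, so this fit only repeats the larger-set value of -0.48.

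Markers of several cell types, cortical epithelium among them, were high on the same array as Prss16. The summed intensity of 9 markers, without the 10 genes, was 5259 on reconRAG1KO replicate 4, 3012 to 3118 on the other reconRAG1KO arrays, and 2809, 3009 and 2262 on reconSCID replicates 1 to 3. None of the markers was at 0, and 8 of 9 had a lower mean in reconSCID, with a median of -0.27 (-0.37 with the block). Of the 9, only Ly75 had a lower mean in the smaller set than in the larger. In the smaller set 6 of the 9 were higher without overlap, beside 32.7% of probe sets. Ly75 measured 9.66 on reconRAG1KO replicate 4 and 10.13 to 10.31 on the group's other arrays. It measured 9.27 on reconSCID replicate 2, against 10.46 and 10.21 on replicates 1 and 3. Ly75 had the highest mean of the 9, so the sum on reconSCID replicate 2 does not show the other markers. On reconRAG1KO replicate 4 the sums of medullary (15992), general epithelial (11470), fibroblast (3313) and endothelial markers (1005) were also the highest of the group, whose other arrays reached at most 13255, 8144, 1430 and 679. The part of any of these in the values of Prss16 was not tested. Of 448 genes with a comparable spread, the profile over 7 arrays closest to that of Prss16 was that of the cortical chemokine gene Ccl25, at a root mean square distance of 0.69 on the log2 scale, where the SD of Prss16 itself was 1.60. Ccl25, itself among the 9 summed markers, measured 7.85, 8.11, 8.07 and 10.13 in reconRAG1KO and 7.01, 7.92 and 6.59 in reconSCID. Gnat3 and Nrbp2 followed at 0.70 and 0.77.

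Ctsl, the cortical cathepsin, also was higher on both arrays of the smaller set, in both groups to a like extent. It measured 9.95, 10.04, 10.28 and 11.42 in reconRAG1KO and 10.02, 11.26 and 10.29 in reconSCID. The difference was 0.11 (-0.95 to 1.16), or 0.00 with the block (-0.29 to 0.29). Fibroblast markers were higher on the same 2 arrays in 7 of 7 genes without overlap, beside 32.7% of probe sets. They summed to 3313 and 5894 against 948 to 1430 on the others, and general epithelial markers to 11470 and 9390 against 3511 to 8144. This was not particular to these lists. Endothelial markers summed to 1005 and 1087 against 666 to 802, and medullary markers to 15992 and 15166 against 6970 to 13255. Sums of dendritic cell and macrophage markers and of thymocyte and T cell markers were lower on both arrays than on all others. Whether any of these bear on Ctsl was not tested. For Psmb11 the closest profiles, among 7959 genes, were those of Mir194-2, Gpr161 and Csta2, at distances of 0.08, 0.09 and 0.11.

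Ctss, the cathepsin that removes the last part of the invariant chain in medullary and dendritic cells, was high in reconSCID within the larger set. It measured 11.70, 11.53, 11.49 and 10.11 in reconRAG1KO and 11.87, 9.80 and 12.20 in reconSCID. The reconSCID group held both the highest and the lowest array. Over all 7 arrays the difference was 0.08 (-1.49 to 1.66, adjusted p = 1). In the larger set it was 0.46 (0.11 to 0.81), where limma gave an unadjusted p of 0.02098 (adjusted p = 0.2461), and between the 2 arrays of the smaller set it was -0.31. With the block it was 0.24 (-0.20 to 0.67), and 0.05 without reconSCID replicate 3.

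The order of the 7 arrays by Ctss was the same as their order by the summed intensity of 19 dendritic cell and macrophage markers. Those sums were 20304, 18658, 17086 and 12589 in reconRAG1KO and 22482, 8815 and 30522 in reconSCID, with no marker at 0. Both groups' ranges overlapped. With the block 15 of 19 markers were higher in reconSCID, with a median of 0.19, and the median was 0.52 in the larger set. Among 1956 genes with a comparable spread, the profiles closest to Ctss were those of Trim30d, Tmem126a and Mpeg1, at distances of 0.07, 0.10 and 0.11, against an SD of 0.92 for Ctss. Mpeg1, a perforin-like gene of macrophages, measured 11.72, 11.49, 11.35 and 9.94 in reconRAG1KO and 12.04, 9.77 and 12.25 in reconSCID. B cell markers were higher in reconSCID in 10 of 10 genes, with a median of 0.97 with the block, and summed to 1149 to 1328 in reconRAG1KO and to 2144, 1271 and 4288 in reconSCID. The part of these cells in the level of Ctss was not tested.

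**Figure D4:**
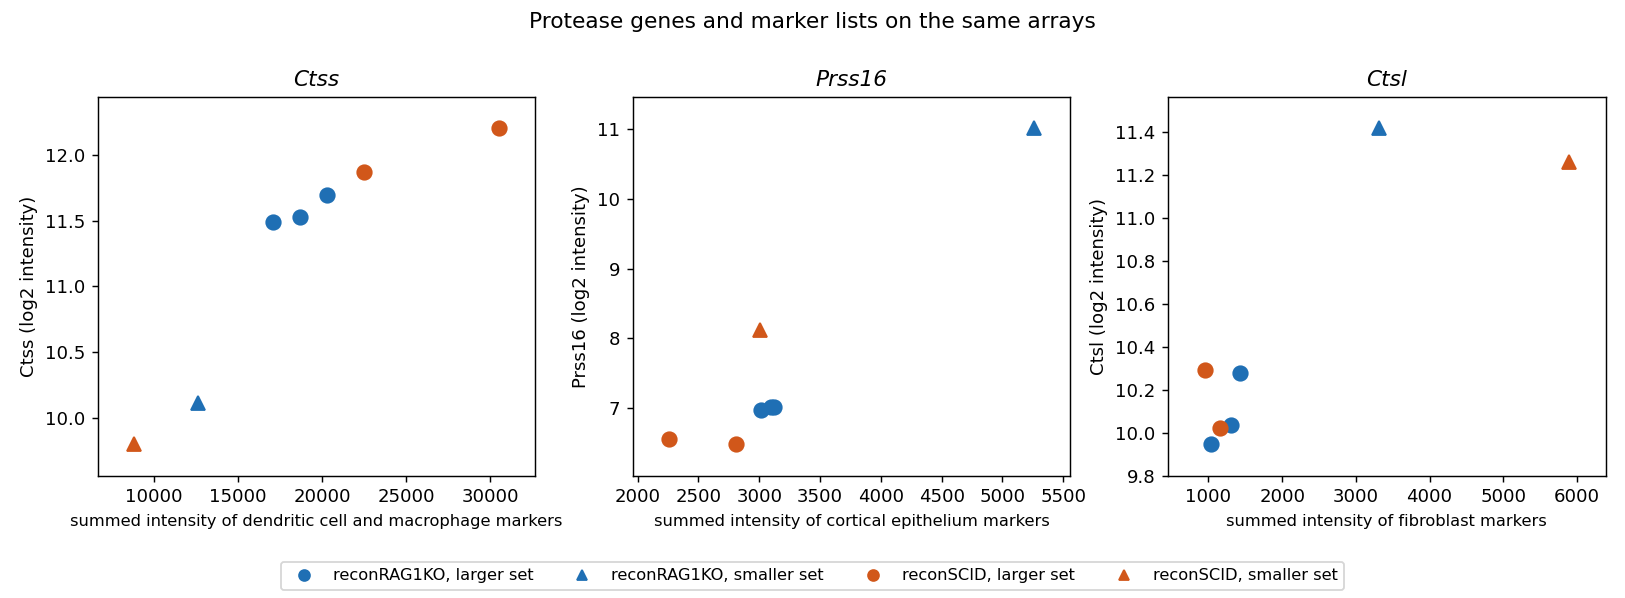
Log2 intensity (y axes) of Ctss, Prss16 and Ctsl against the summed intensity (x axes) of dendritic cell and macrophage, cortical epithelium and fibroblast markers on the same 7 arrays. Ctss and its marker sum order the arrays alike, from 9.80 at 8815 to 12.20 at 30522, while for Prss16 and Ctsl the high values are those of arrays in the smaller set (triangles).

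Lgmn and Ifi30 showed the same low arrays as Ctss. Lgmn measured 11.14, 10.97, 10.97 and 10.25 in reconRAG1KO and 11.16, 9.80 and 10.97 in reconSCID, a difference of -0.19 (-1.08 to 0.70), or -0.11 with the block (-0.40 to 0.19). Ifi30 measured 12.51, 12.37, 12.36 and 11.74 in reconRAG1KO and 12.51, 11.39 and 12.64 in reconSCID, a difference of -0.07 (-0.88 to 0.75). In the larger set their differences were 0.03 (-0.21 to 0.28) and 0.16 (-0.05 to 0.36). The ratio of Ctss to Ctsl, the proteases that split medullary from cortical processing, differed by -3.03 on the log2 scale in the smaller set from the larger. It differed by -2.80 within reconRAG1KO and by -3.34 within reconSCID. Between the groups it differed by 0.39 in the larger set, where its SD among reconRAG1KO arrays was 0.27, and by -0.16 in the smaller. Medullary marker sums were 15166 to 15992 in the smaller set and 6970 to 13255 in the larger. Of the 11 medullary markers 4 were higher and 2 lower in the smaller set without overlap. Cortical marker sums were 3009 to 5259 in the smaller set and 2262 to 3118 in the larger. The part of either cell type in this ratio was not tested.

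Further genes of the lysosomal route gave no call. Of 15 other cathepsins and peptidases 10 had a higher mean in reconSCID over all arrays, with a median of 0.08, and 12 of 15 had one with the block, with a median of 0.10, or 0.31 in the larger set and -0.21 in the smaller. The smallest unadjusted p was that of the tripeptidyl peptidase gene Tpp1, which differed by 0.24. Of 4 cathepsin inhibitor genes 3 were lower. Cst6, known as cystatin E/M, an inhibitor of legumain and cathepsin L, measured 7.22, 7.34, 7.11 and 7.06 in reconRAG1KO and 6.53, 6.86 and 6.81 in reconSCID. Cst6 is named for the smallest unadjusted p of its list. The groups did not overlap for Cst6, where 1.43% of all probe sets were lower in reconSCID without overlap. Its difference was -0.45 over all arrays, also when blocked by array set, -0.56 in the larger set and -0.20 in the smaller. The unadjusted limma p was 0.00809 and the adjusted p 1. Of 13 measured lysosome and autophagy genes 8 were higher, with a median of 0.02, and the lysosomal regulator gene Tfeb, with the smallest unadjusted p, differed by 0.14.

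On the class I side, loading genes had a median of 0.02, with 6 of 10 higher. Canx, the chaperone calnexin that holds newly made heavy chains, measured 11.24, 11.36, 11.38 and 11.55 in reconRAG1KO and 11.58, 11.75 and 11.60 in reconSCID. Every reconSCID array lay above every reconRAG1KO array, by a mean of 0.26 on the log2 scale, or 0.25 with the block. Canx is named for the smallest unadjusted p of its list, and 2.09% of all probe sets were higher in reconSCID without overlap. The unadjusted limma p of Canx was 0.04079 and the adjusted p 1. In the interferon-response list 12 of 21 were higher, with a median of 0.02, and the guanylate-binding protein gene Gbp7 had the smallest unadjusted p, 0.07417, at a difference of 0.46. No gene of these lists passed over all probe sets.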

How the data were processed

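Intensity values, 1 per probe set on a linear scale, were deposited for 7 arrays by the authors, and array medians show that the arrays had been brought to nearly the same level. The summary and normalization steps were not given in the sources used here. Per the labels' protocols, biotinylated cRNA was made from 6 ug of total RNA by the Affymetrix protocol. The groups and replicate numbers came from the titles. The table held 34760 probe sets with 0 missing values and 0 values below 1. No pseudocount was added before log2. In the platform annotation, 21640 probe sets had 1 gene symbol, 1321 several and 11799 none. RefSeq gene IDs of GRCm38.p6 were found for 21553, and 0 symbols needed an update. Per gene the probe set with the highest mean was used, and levels of different probe sets were not compared.

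Tests were those of limma 3.58.1 (lmFit, then eBayes; R 4.3.3), two-sided, adjusted over all probe sets, and differences are reconSCID minus reconRAG1KO. The number of arrays limits the precision. Array sets came from average-linkage clustering of correlations into 2. The fit was tested on simulated data with known changes, which were larger than most differences given here. That test does not show whether differences of the size given here would be found. The 10 genes and the lists were chosen with earlier results of these data known. From each list the gene of smallest unadjusted p is named, except where said. Closest profiles were sought among genes whose SD was at least 0.5 times that of the gene described. Alternatives were quantile normalization, median centring, a pseudocount of 16, a filter on low values, array weights, blocking by replicate number or by array set, an intensity trend with robust fitting, array subsets, leaving out each array, and the mean of a gene's probe sets. Protein sequences were not used here. Some list members were not analysed here.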

Additional observations from a re-analysis of the deposited data

Results flagged for a closer look

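Within reconRAG1KO, 4 of the 10 genes had replicate 4 farther from the nearest other array than the Dixon criterion for 4 samples allows, which chance does in about 1 of 20 groups. Psmb8 measured 9.23 there, at a gap of 0.879 of the group's range, and Psmb9 measured 9.23, at 0.876. Prss16 measured 11.01, at 0.989, and Ctss measured 10.11, at 0.872. The 4 flags fall on 1 array, so they are not independent of each other. The reconSCID group, of 3 samples, is too small for this criterion.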

How the results depend on the processing

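None of the 10 genes passed under any alternative that gave a test (the smaller set alone, with 1 array a group, gave none), and 9 of 10 changed sign under at least 1, the exception being Psmb10. With array weights the signs of Psmb8 (0.00), Psmb9 (0.06), Ctsl (-0.02), Lgmn (0.09) and Ifi30 (0.10) turned, and 47 probe sets passed as higher and 10 as lower, with weights of 0.16 and 0.12 for the arrays of the smaller set. Without weights 0 probe sets passed over all 7 arrays. There the looser rule of an unadjusted p under 0.05 gave 765 as higher and 394 as lower. Blocking by array set turned Psmb9 (0.08) and Ifi30 (0.01), in the larger set Psmb9 (0.06), Lgmn (0.03) and Ifi30 (0.16), and in the smaller Psmb11 (-0.20), Psmb9 (0.12), Ctsl (-0.16) and Ctss (-0.31) turned. With the replicate number as a block Prss16 (0.06) and Ctss (-0.28) turned and 0 probe sets passed in either direction. Deviations of same-numbered arrays from their group means correlated at 0.472, -0.508 and 0.314. The arrays numbered 2 lie in different array sets, so these values cannot show whether the numbers pair the samples. Each array left out in turn gave these ranges. Leaving out either array of the smaller set from the blocked fit returns the larger-set estimate, so the blocked ranges include it. Psmb11 ran from -0.13 to 0.33, or from -0.12 to 0.11 blocked by array set. Psmb8 ran from -0.63 to 0.42, or from -0.06 to 0.02 blocked by array set. Psmb9 ran from -0.36 to 0.40, or from 0.06 to 0.12 blocked by array set. Psmb10 ran from -0.73 to -0.05, or from -0.39 to -0.16 blocked by array set. Psmb5 ran from -0.67 to 0.09, or from -0.39 to -0.12 blocked by array set. Prss16 ran from -1.48 to 0.06, or from -1.46 to -0.48 blocked by array set. Ctsl ran from -0.26 to 0.44, or from -0.10 to 0.07 blocked by array set. Ctss ran from -0.37 to 0.83, or from 0.05 to 0.46 blocked by array set. Lgmn ran from -0.45 to 0.23, or from -0.21 to 0.03 blocked by array set. Ifi30 ran from -0.30 to 0.33, or from -0.09 to 0.16 blocked by array set. Psmb4 turned to 0.14 without reconSCID replicate 2, among values from -0.58. The interferon-response median ran from -0.03 to 0.12 blocked by array set. The filter on low values left no value for Psmb11.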
